A study of Mus musculus with 8 samples.

Results

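The 10 genes described here are the mouse genes that load and display peptides on MHC class II together with their transcriptional activator: Ciita, Cd74, H2-Aa, H2-Ab1, H2-Eb1, H2-DMa, H2-DMb1, H2-DMb2, H2-Oa and H2-Ob. They were chosen by name from the 27179 genes counted in each library, without the lysosomal cathepsins. All 10 were found and all 10 passed the filter on low counts, as did 18163 genes in all. RNA-seq was made from thymic epithelial cells of C57BL/6 mice in 8 libraries, which were wild-type (WT) cortical cells (cTECs, n = 4), WT medullary cells (mTECs, n = 2), Mcl1 knock-out (KO) cTECs (n = 1) and KO mTECs (n = 1). Mcl1 encodes a survival protein of the BCL2 family. The labels used here do not say how Mcl1 was deleted, which cells the deletion reaches, how old the mice were or whether pellets were pooled. Values are CPM, the counts of a gene relative to the library total, scaled by the TMM method unless stated otherwise, and a gene was called when its Benjamini-Hochberg adjusted p from edgeR's quasi-likelihood test was under 0.05. Because each KO group is a single library, the spread behind a KO comparison comes from the WT libraries alone.

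MHC class II molecules carry peptides of endosomal origin to the cell surface, where CD4 T cells read them. Thymic epithelial cells are unusual among non-haematopoietic cells in carrying them without an inflammatory stimulus, and in the thymus they serve positive selection in the cortex and deletion of self-reactive T cells or generation of regulatory T cells in the medulla. CIITA binds no DNA itself but is recruited to promoters whose X and Y boxes are held by the RFX complex and NF-Y. The invariant chain Cd74 escorts newly made class II dimers, H2-M (H2-DMa with H2-DMb1 or H2-DMb2) exchanges its remnant for peptides, and H2-O (H2-Oa with H2-Ob) restrains H2-M.

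Ciita spans chr16:10480014-10531064, and all the H2 genes among the members sit in the MHC on chromosome 17, between H2-Oa, from 34092379, and H2-Eb1, to 34316674 (GRCm38). Cd74 lies outside both. Promoter windows from 250 bases before to 50 after a start were held for 7 of the 10 in the RefSeq table of GRCm38.p6, Ciita, Cd74 and H2-Ab1 being the others. The letters GATTGG, the Y box read as CCAAT on the other strand, occurred on the gene's strand in at least 1 window of each of the 7, with 2 windows held for H2-DMa, of which 1 has it. They occurred on either strand in 16.1% of 32851 windows of the same 300-base length. The letters AACNNATG, here taken for the core of the X box, occurred in 8.86% of them. Both motifs on 1 strand with 15 to 25 bases between them occurred in 14 windows, or 0.0426%. Of those 14 windows, 4 belong to members (4 of 7 with a window), and another belongs to H2-Eb2, a class II beta gene that is no member. The form of the X letters and the spacing were chosen after reading these windows, so the counts describe them and test nothing.

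The stretches below show the motif pair in the 4 members that hold it and in H2-Eb2, and the same region of 2 members that hold GATTGG alone. Capitals mark AACNNATG and GATTGG, and each runs from 5′ to 3′ on the gene's strand. H2-Eb1 (chr17:34305762-34305822), H2-DMb1 (chr17:34153084-34153144), H2-DMb2 (chr17:34145113-34145173) and H2-Ob (chr17:34238802-34238862) lie on the plus strand and hold both motifs, as does H2-Eb2 (chr17:34325529-34325589).
H2-Eb1: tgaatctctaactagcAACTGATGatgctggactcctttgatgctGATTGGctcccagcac
H2-Eb2: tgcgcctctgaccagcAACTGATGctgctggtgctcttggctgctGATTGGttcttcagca
H2-DMb1: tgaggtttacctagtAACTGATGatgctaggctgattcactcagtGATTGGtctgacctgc
H2-DMb2: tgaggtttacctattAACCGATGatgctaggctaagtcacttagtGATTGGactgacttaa
H2-Ob: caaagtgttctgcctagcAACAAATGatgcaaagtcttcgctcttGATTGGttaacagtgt
H2-Aa (chr17:34287857-34287917, minus strand) and H2-Oa (chr17:34092290-34092350, plus strand) hold GATTGG but not AACNNATG at that spacing, which says only that these letters are not there.
H2-Aa: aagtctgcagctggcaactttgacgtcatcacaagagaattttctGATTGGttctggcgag
H2-Oa: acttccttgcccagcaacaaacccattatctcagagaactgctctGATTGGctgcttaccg

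The number of bases between the motifs was 21 in H2-Eb1 and H2-Eb2, 22 in H2-DMb1 and H2-DMb2 and 19 in H2-Ob. The pair in H2-DMb1 and H2-DMb2 is embedded in closely similar sequence, and these 2 genes also share reads: 18.8% of the 75-base windows of the H2-DMb2 transcript, and 19.1% of those of H2-DMb1, were identical in the other gene. Values of either copy alone are therefore uncertain.

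Total counts per library ran from 11516780 to 19171953. Mcl1 was at 227.6, 301.7, 259.2 and 240.7 CPM in WT cTEC libraries 1 to 4 and at 8.223 CPM in KO cTEC, and at 112.6 and 203.1 CPM in the WT mTEC libraries against 78.63 CPM in KO mTEC. Its fall was called in KO cTEC (log2 fold change -4.97 ± 0.45 SE, edgeR adjusted p = 0.000295) but not in KO mTEC (-1.01 ± 0.36, edgeR adjusted p = 0.538). Summed cTEC markers were at 5446 to 10800 CPM in WT cTECs and 2323 to 2611 CPM in WT mTECs. Summed mTEC markers overlapped, at 3580 to 4786 CPM in WT cTECs and 3874 and 4256 CPM in WT mTECs, with 7 of 13 called higher in WT mTECs and 3 lower. One of the 7, the regulator Aire, was at 28.92 to 116.1 CPM in WT cTECs, 338 and 552.4 CPM in WT mTECs and 0 counts in KO cTEC. WT cTEC library 1 stood apart from the other 3, with summed immediate-early genes at 3535 CPM against 21123 to 29727 CPM. The same sum was 1810 and 2939 CPM in WT mTECs, where 13 of 18 of these genes were called lower than in WT cTECs, 6877 CPM in KO cTEC and 4314 CPM in KO mTEC. The labels do not say that libraries of a group came from separate mice, although the series text calls them biological replicates. If they did not, p-values measure only the spread between these samples.

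Within a library the members spanned a wide range of levels. Divided by gene length (RPKM, the scaled CPM per kilobase of gene), mean levels in WT cTECs were 8277 for Cd74, 5858 for H2-Ab1, 2666 for H2-Aa and 1173 for H2-Eb1. H2-DMa at 332.2, H2-DMb2 at 273.1, H2-DMb1 at 145.7, H2-Oa at 84.51, Ciita at 32.78 and H2-Ob at 13.15 RPKM followed. In this order the neighbours H2-DMa and H2-DMb2 overlapped between libraries, as did H2-DMb1 and H2-Oa. In WT mTECs the order of the upper 4 was the same, at 13671, 8800, 4647 and 1967 RPKM. Below them H2-DMb2 (495.4 RPKM) and H2-Oa (359.6 RPKM) stood above H2-DMa (300.8 RPKM) and H2-DMb1 (158.3 RPKM), and Ciita (39.85 RPKM) was again above H2-Ob (33.31 RPKM). The gene models behind H2-DMa (781 bases), H2-DMb2 (786 bases) and H2-Aa (1069 bases) are shorter than the longest annotated transcripts (2005, 1483 and 3223 bases). Whether this shifts their values per length was not tested. Cd74 alone took 45.29 to 49.45% of the members' counts in every library.

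**Figure D1:**
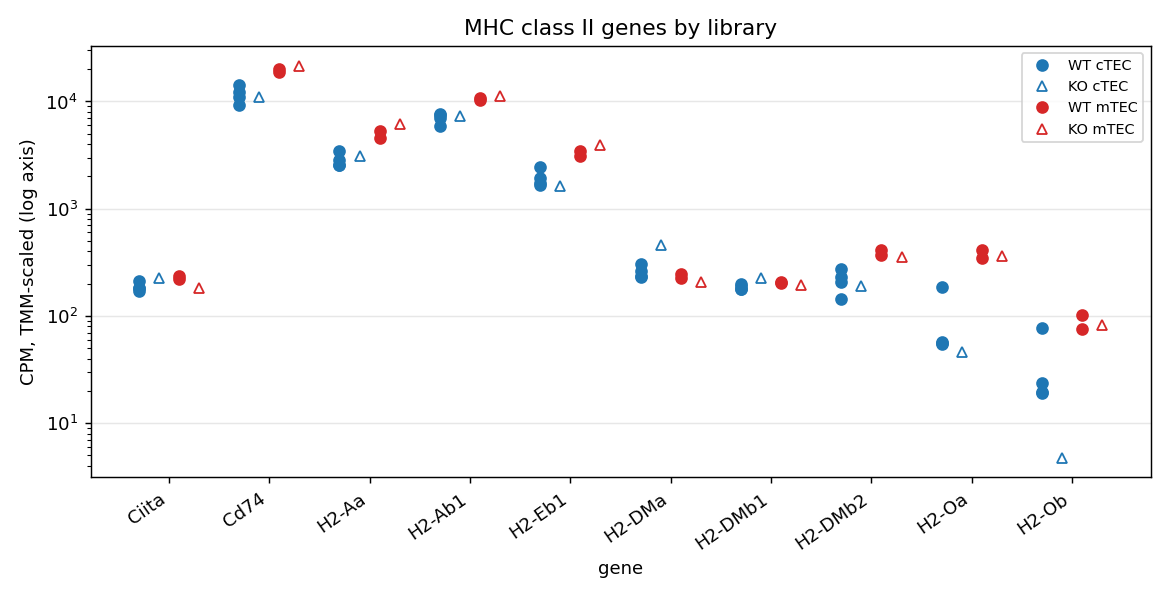
TMM-scaled CPM (log axis) of the 10 class II genes, 1 point per library, circles for WT and open triangles for KO, blue for cTEC and red for mTEC. The classical chains and Cd74 lie higher in all mTEC than in all cTEC libraries, and H2-Oa and H2-Ob have 1 WT cTEC library (library 1, at 186.1 and 77.78 CPM) far above the other 3.

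WT mTECs had more of the class II chains, of Cd74, of H2-DMb2 and of H2-Oa than WT cTECs, while Ciita, H2-DMa, H2-DMb1 and H2-Ob were not called. Of the 10 members, 6 were called higher and 0 lower, where 27.0% of all genes tested were called, 13.2% higher and 13.9% lower. The members' median log2 fold change was 0.74, against 0.06 over all genes tested. Together the 10 genes took 2.021 to 3.01% of the counts in WT cTECs and 3.665 and 4.126% in WT mTECs. In bulk RNA, more cells that carry a transcript and more of it per cell cannot be told apart.

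Ciita, the activator, was at 181.9, 210.9, 170.1 and 183.5 CPM in WT cTECs and at 219.6 and 234.1 CPM in WT mTECs. The 2 mTEC values lay above all 4 cTEC values, but the log2 fold change of 0.28 ± 0.15 was not called (edgeR adjusted p = 0.181, 95% interval -0.05 to 0.62). Ciita overlaps Dexi in the annotation, and the library kit is not stated to keep strand, so reads from the overlap cannot be assigned with certainty.

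Among the chains, H2-Aa, the alpha chain of I-A, was at 3466, 2540, 2859 and 2536 CPM in WT cTECs and at 4609 and 5326 CPM in WT mTECs (log2 fold change 0.80 ± 0.19, edgeR adjusted p = 0.0174). Its partner H2-Ab1 was at 7563, 6990, 7507 and 5895 CPM in WT cTECs and at 10764 and 10232 CPM in WT mTECs (0.59 ± 0.18, edgeR adjusted p = 0.041). H2-Eb1, the beta chain of I-E, was at 2463, 1672, 1951 and 1746 CPM in WT cTECs and at 3109 and 3456 CPM in WT mTECs (0.75 ± 0.20, edgeR adjusted p = 0.0255). For all 3 chains, both mTEC libraries lay above every cTEC library. H2-Ea, which would supply the alpha chain of I-E and is defective in this strain's H-2b haplotype, was at most at 2.373 CPM in any library. H2-Aa per H2-Ab1, each per length, was 0.4055 to 0.5114 in WT cTECs and 0.4778 and 0.5809 in WT mTECs.

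Cd74 was at 14333, 10917, 12326 and 9270 CPM in WT cTECs and at 18660 and 20028 CPM in WT mTECs, again without overlap (log2 fold change 0.73 ± 0.21, edgeR adjusted p = 0.0365). Per length, 1.317 to 1.598 Cd74 were counted for each H2-Ab1 in WT cTECs and 1.462 and 1.65 in WT mTECs, ranges that overlap.

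The peptide editor did not move as a unit. H2-DMa was at 261.5, 237.6, 306.2 and 232.7 CPM in WT cTECs and at 244.1 and 225.7 CPM in WT mTECs, and the groups overlapped (log2 fold change -0.14 ± 0.16, edgeR adjusted p = 0.547). H2-DMb1 was at 179, 180.1, 200.5 and 188.7 CPM in WT cTECs and at 205.6 and 200.8 CPM in WT mTECs (0.12 ± 0.14, edgeR adjusted p = 0.536). H2-DMb2 was at 274.3, 209.2, 230.7 and 144.6 CPM in WT cTECs and at 370.9 and 407.9 CPM in WT mTECs (0.86 ± 0.23, edgeR adjusted p = 0.0283). The rise of H2-DMb2 beside H2-DMb1 carries the uncertainty of their shared sequence. Their sum was 333.3 to 453.3 CPM in WT cTECs and 576.5 and 608.7 CPM in WT mTECs.

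H2-O showed the largest fold among the members and the largest spread. H2-Oa was at 186.1, 56.31, 57.36 and 54.81 CPM in WT cTECs and at 346.9 and 407.6 CPM in WT mTECs, a fold of 4.26 (log2 fold change 2.09 ± 0.49, edgeR adjusted p = 0.0189). H2-Ob was at 77.78, 19.09, 19.64 and 23.9 CPM in WT cTECs and at 75.77 and 102.1 CPM in WT mTECs (1.35 ± 0.55, edgeR adjusted p = 0.107). In WT cTEC library 1, H2-Oa was 3.31 times and H2-Ob 3.73 times the mean of libraries 2 to 4, and for H2-Ob it overlapped the mTEC values. Without that library the log2 fold changes were 2.75 ± 0.14 for H2-Oa (edgeR adjusted p = 7.28e-05) and 2.09 ± 0.20 for H2-Ob (edgeR adjusted p = 0.000294), so that H2-Ob was then called. With library 1 as the only WT cTEC library they were 0.98 ± 0.21 and 0.15 ± 0.22.

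**Figure D2:**
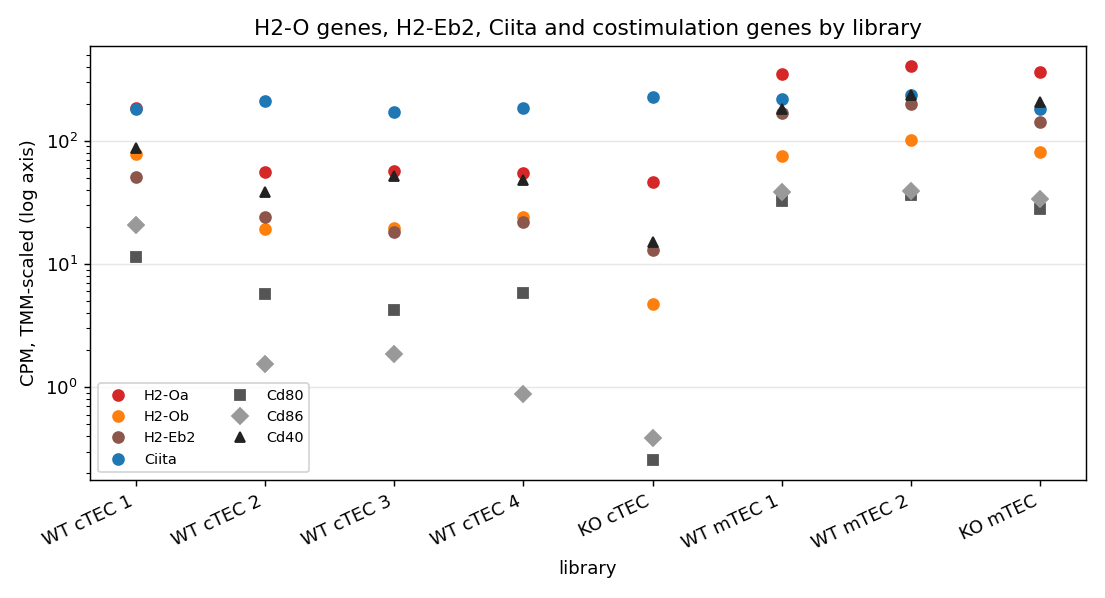
TMM-scaled CPM (log axis) of H2-Oa, H2-Ob, H2-Eb2, Ciita and 3 costimulation genes, 1 point per gene in each of the 8 libraries. H2-Oa, H2-Ob, H2-Eb2, Cd80, Cd86 and Cd40 are higher in WT cTEC library 1 than in cTEC libraries 2 to 4. Ciita is between 170.1 and 234.1 CPM in all 8.

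Within a library, H2-Oa was 17.65, 13.95 and 17.54% of H2-DMa per length in WT cTEC libraries 2 to 4 and 53% in library 1. In WT mTECs it was 105.8 and 134.4%, above every cTEC library. H2-Ob was 1.877 to 8.7% of H2-DMa in WT cTECs and 9.079 and 13.23% in WT mTECs. The gene model of H2-Oa (1049 bases, against 1340 in its longest transcript) is short, as is that of H2-DMa. What this does to the percentages was not tested, but the lengths are the same in all libraries.

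**Figure D3:**
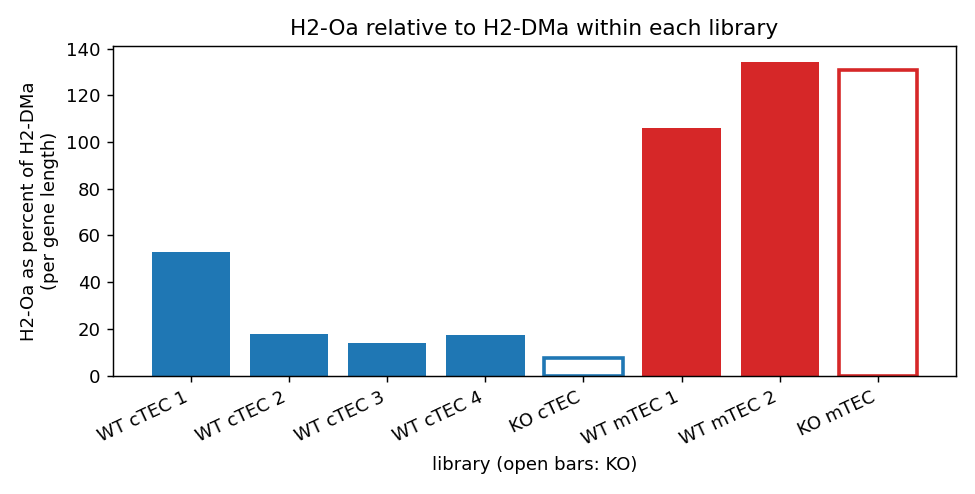
H2-Oa as a percentage of H2-DMa, both per gene length, in each library (filled bars WT, open bars KO, blue cTEC, red mTEC). The 3 mTEC bars are at 105.8 to 134.4%, and the cTEC bars at 7.528 to 53%.

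WT mTEC and cTEC libraries were fully apart, with mTECs higher, for 8 of the 10 members (all but H2-DMa and H2-Ob), where 30.2% of all genes tested were so. In either direction 55.0% of all genes were fully apart. These calls rested on few libraries. Without WT cTEC library 2 or library 3 the number called higher was 2, without WT mTEC library 1 or 2 it was 0, and with library 1 as the only WT cTEC library it was 1, although in each case 9 of 10 log2 fold changes were positive. Without 1 WT mTEC library, that of Cd74 was 0.78 or 0.68. With library 1 as the only WT cTEC library the log2 fold changes were smaller, at 0.39 for Cd74, 0.48 for H2-Aa, 0.43 for H2-Ab1, 0.37 for H2-Eb1 and 0.46 for H2-DMb2, and 0.98 for H2-Oa, the 1 still called. The sum of immediate-early genes in library 1 is the nearest of the WT cTEC sums to those of WT mTECs, and its part in these values was not tested.

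Other class II cells can be present in a sort of this kind. The 16 dendritic cell and macrophage markers summed to 218 to 343.8 CPM in WT cTECs and to 904.6 and 1164 CPM in WT mTECs, mostly Lyz2. Of the 13 that passed the filter, 6 were called higher in WT mTECs and 0 lower, among them Lyz2 (log2 fold change 2.33 ± 0.26) and Fcer1g (2.99 ± 0.65, at 49.34 and 51.99 CPM in WT mTECs). Of the markers that did not pass it, Itgax was at most 1.044 CPM and Clec9a at most 0.6594 CPM in any WT library. The 10 B cell markers summed to 63.38 to 73.29 CPM in WT cTECs and 104.1 and 118.8 CPM in WT mTECs. Of the 9 that passed the filter, 3 were called higher in WT mTECs and 1 lower, with Cd79b at 35.72 and 41.97 CPM in WT mTECs (1.30 ± 0.33), and Pax5, which did not pass it, was at most 0.8964 CPM in any WT library. WT cTEC library 1 was at 2.78 CPM for Flt3, a receptor of dendritic cells, against 0 to 0.4884 CPM in libraries 2 to 4 and 6.264 and 9.808 CPM in WT mTECs. Other markers of that list went both ways in library 1. Xcr1 (1.854 against 0 to 0.6512 CPM) and Fcer1g (15.83 against 2.905 to 3.907 CPM) were higher than in libraries 2 to 4. Itgam was lower (3.992 against 7.126 to 13.34 CPM), and Itgax, Clec9a and Siglech were at 0 CPM. What part these cells have in the members' values was not tested.

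Of the 13 listed regulators of class II genes, which include the RFX subunits, 0 were called between WT mTECs and WT cTECs by edgeR, with 1 at an unadjusted p under 0.05, and their median log2 fold change was -0.16. Of 9 tested genes of class II processing and turnover, 2 were called higher and 1 lower. H2-Eb2 was at 168.2 and 200.6 CPM in WT mTECs against 50.54, 24.1, 18.18 and 22.03 CPM in WT cTECs (log2 fold change 2.69 ± 0.36, edgeR adjusted p = 0.00263), with library 1 the highest cTEC library, as for H2-O. Ifi30, a lysosomal thiol reductase, rose (1.67 ± 0.22, edgeR adjusted p = 0.00245). Marchf8, a ubiquitin ligase that removes class II from the surface, fell (-1.22 ± 0.26, edgeR adjusted p = 0.012).

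Of 9 genes of the interferon-gamma axis, which induces Ciita in many cells, 3 were called higher in WT mTECs and 3 lower. Ifng itself was at most 3.269 CPM in any library (log2 fold change 3.91 ± 1.23, edgeR adjusted p = 0.0476). Its negative regulator Socs1 rose (0.71 ± 0.15, edgeR adjusted p = 0.0125). Among 6 costimulation genes, Cd80, Icosl and Cd40 rose (2.34 ± 0.37, 2.07 ± 0.31 and 1.89 ± 0.29) and 1 fell. Of 10 class I genes, 2 were called higher and 2 lower, with B2m at 0.88 ± 0.21 and Tap1 at -0.74 ± 0.16.

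In KO cTEC, H2-DMa was higher than in WT cTECs, and no difference was called for the other 9 members. That is 1 of 10 called higher and 0 lower, where 17.5% of all genes tested were called, 5.10% higher and 12.4% lower. The members' median log2 fold change was -0.01, against -0.14 over all genes tested. KO cTEC lay above all 4 WT cTEC libraries for 3 members (29.0% of all genes), below all 4 for 3 (32.9%) and within their range for 4, so that 6 of 10 were outside it (61.9% of all genes). The 10 genes took 2.468% of its counts, inside the WT range.

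Ciita was at 225 CPM in KO cTEC, above the highest WT cTEC library (log2 fold change 0.27 ± 0.19, edgeR adjusted p = 0.356, 95% interval -0.16 to 0.70). Of the chains, H2-Aa at 3102 CPM and H2-Ab1 at 7399 CPM lay within the WT cTEC range, and H2-Eb1 at 1629 CPM lay just below it. Their log2 fold changes were 0.12 ± 0.25, 0.08 ± 0.23 and -0.27 ± 0.26. Cd74, at 10996 CPM, was within the range too (-0.09 ± 0.28, 95% interval -0.73 to 0.55). 

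H2-DMa was at 458.7 CPM in KO cTEC against 232.7 to 306.2 CPM in WT cTECs, a fold of 1.77 (log2 fold change 0.82 ± 0.20, edgeR adjusted p = 0.0249). Across 12 alternative settings its adjusted p ran from 0.00108 to 0.0534, and the call was lost without WT cTEC library 2 (adjusted p = 0.0534), WT mTEC library 1 (0.0533) or WT mTEC library 2 (0.0518). H2-DMa overlaps Brd2 in the annotation. Brd2 was at 237.9 CPM in KO cTEC, within the WT cTEC values of 146.1 to 317 CPM. Its partners H2-DMb1, at 227 CPM (0.28 ± 0.17), and H2-DMb2, at 188.9 CPM (-0.18 ± 0.31), were not called.

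Neither gene of H2-O was called in KO cTEC. H2-Oa was at 46.38 CPM, below the 54.81 CPM of the lowest WT cTEC library (log2 fold change -0.93 ± 0.71, edgeR adjusted p = 0.401). Without WT cTEC library 1 its log2 fold change was -0.28 ± 0.18 (edgeR adjusted p = 0.311), and with library 1 as the only WT cTEC library it was -2.10 ± 0.24 (edgeR adjusted p = 3.89e-05). H2-Ob was at 4.754 CPM, from 74 counts, against 19.09 to 77.78 CPM (-2.88 ± 0.95, edgeR adjusted p = 0.0744). The H2-Ob value was called lower without WT cTEC library 1 (-2.14 ± 0.30, edgeR adjusted p = 0.00195) and by DESeq2 with all libraries (adjusted p = 0.000394), and not by limma-voom (adjusted p = 0.198). H2-Oa was 7.528% of H2-DMa per length in KO cTEC, below all WT libraries.

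**Figure D4:**
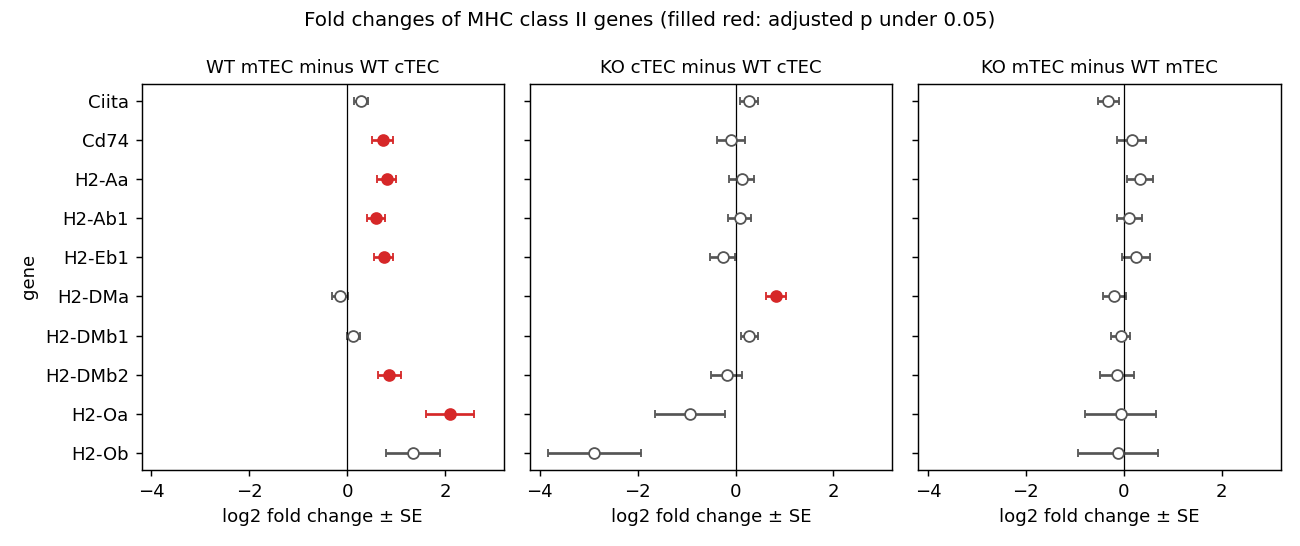
Log2 fold changes with their SE from edgeR for the 10 class II genes (rows) in 3 comparisons, WT mTEC minus WT cTEC, KO cTEC minus WT cTEC and KO mTEC minus WT mTEC, filled red where called. In the first comparison 6 genes are called, in the second H2-DMa alone and in the third 0.

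Markers of other class II cells were low in the same library. B cell markers summed to 8.03 CPM in KO cTEC against 63.38 to 73.29 CPM in WT cTECs, with 4 of 10 at 0 counts (Ms4a1, Pax5, Cd22 and Fcrla). Each of these 4 was also at 0 CPM in a WT cTEC library. Dendritic cell and macrophage markers summed to 99.25 CPM, of which Sirpa gave 81.33 CPM, against 218 to 343.8 CPM, with 4 of 16 at 0 counts (Flt3, Xcr1, Clec9a and Adgre1). WT cTEC library 4 was also at 0 CPM for Flt3, Xcr1 and Clec9a, and for Itgax, Siglech and Tyrobp. Adgre1 was at 0.5481 to 1.179 CPM in WT cTECs. The mTEC markers summed to 1968 CPM against 3580 to 4786 CPM, with Aire and Csn2 at 0 counts. Most of the 1968 CPM came from Krt5 (894.4 CPM) and Krt14 (1027 CPM), neither of them called. Of the 13 mTEC markers, 11 were called lower and 0 higher, where 12.4% of all genes tested were called lower. The median log2 fold change of the 13 was -4.85. The part of these cells in the members' values was not tested.

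Of 10 listed class I genes, 4 were called lower in KO cTEC and 0 higher, among them the activator and both kinds of chain. Nlrc5, the class I counterpart of Ciita, was at 8.672 CPM in KO cTEC against 87.12 to 117.4 CPM in WT cTECs (log2 fold change -3.55 ± 0.30, edgeR adjusted p = 0.000228). B2m, the class I light chain, was at 984.8 CPM against 4396 to 6977 CPM (-2.57 ± 0.34, edgeR adjusted p = 0.00172), and H2-K1, a heavy chain, at 1662 CPM against 4346 to 5396 CPM (-1.58 ± 0.26, edgeR adjusted p = 0.00464). Ciita per Nlrc5 was 31.65 per length in KO cTEC and 1.908 to 3.243 in the 6 WT libraries. H2-Ab1 per H2-K1 was 6.144 against 1.787 to 2.557. The classical class I genes are close copies of each other. Whether they share reads here was not tested, so H2-K1 alone is uncertain.

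**Figure D5:**
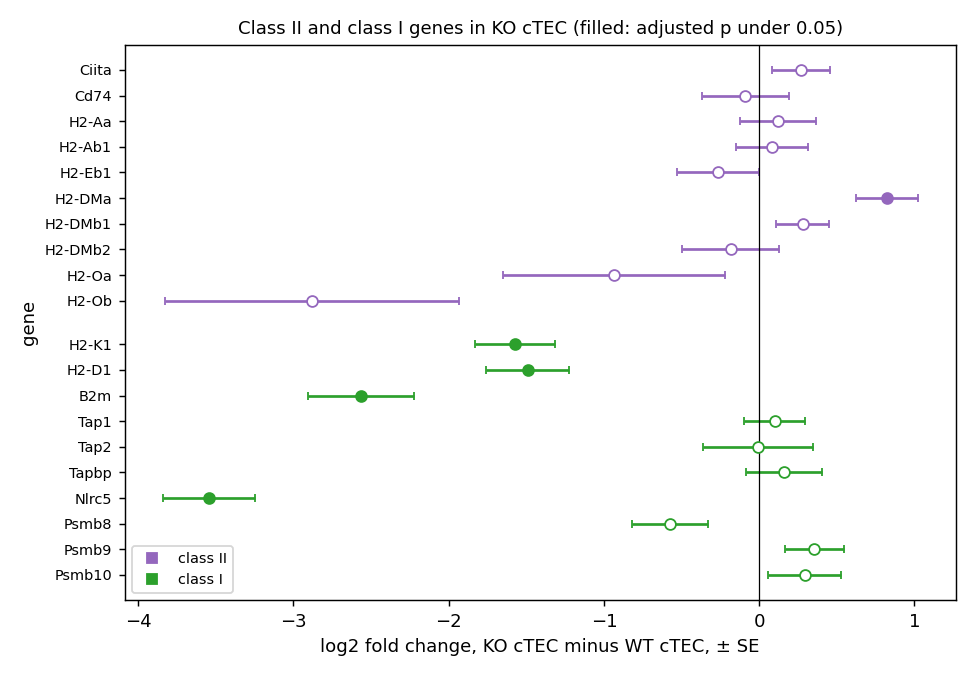
Log2 fold changes with their SE from edgeR, KO cTEC minus WT cTEC, for the 10 class II genes (purple) and 10 class I genes (green), filled where called. Of the class I genes, Nlrc5, B2m, H2-K1 and H2-D1 are called, at -1.49 or lower, and the other 6 are not. Of the class II genes H2-DMa alone is called, and the values run from -2.88 (H2-Ob) to 0.82 (H2-DMa).

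Of the 13 regulators, Rfxap, a subunit of the RFX complex, rose in KO cTEC (93.73 CPM against 41.57 to 54.32 CPM, log2 fold change 0.98 ± 0.22, edgeR adjusted p = 0.0179). Prdm1, a repressor of Ciita in plasma cells, had 0 counts against 2.028 to 6.56 CPM in WT cTECs, at least 21.5-fold lower with 3 counts in the library as the floor. In the processing list 1 of 9 was called, Unc93b1, a transport chaperone of endosomal Toll-like receptors, which fell (-3.16 ± 0.36, edgeR adjusted p = 0.000899). In the interferon-gamma axis 5 of 9 were called lower, among them Socs1 (-1.71 ± 0.23) and Ifngr1 (-1.55 ± 0.30). Of 6 costimulation genes, 4 were called lower, with Pdcd1lg2 at -6.44 ± 0.60, Cd80 at -4.68 ± 0.80 and Cd274 at -2.17 ± 0.24.

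In KO mTEC 0 of the 10 members were called by edgeR, 0 had an unadjusted p under 0.05, and DESeq2 and limma-voom also called 0. Over all genes tested the share called was 0%, with 1502 genes at an unadjusted p under 0.05. DESeq2 called 139 genes and limma-voom 0. KO mTEC lay outside the values of the 2 WT mTEC libraries for 8 of 10 members, 4 above and 4 below, where 80.4% of all genes did (38.7% above and 41.7% below). Ciita was at 182.3 CPM, below both WT mTEC libraries (log2 fold change -0.32 ± 0.21). Cd74 at 21639 CPM, H2-Aa at 6231 CPM, H2-Ab1 at 11310 CPM and H2-Eb1 at 3894 CPM lay above both (0.16 ± 0.30, 0.33 ± 0.27, 0.11 ± 0.26 and 0.25 ± 0.28). H2-DMa at 205.4 CPM, H2-DMb1 at 194.7 CPM and H2-DMb2 at 353.7 CPM lay below both, and H2-Oa at 361 CPM and H2-Ob at 81.7 CPM between them. Their log2 fold changes were -0.20 ± 0.23, -0.06 ± 0.19, -0.14 ± 0.34, -0.06 ± 0.73 and -0.12 ± 0.81. Mcl1 in this library was below both WT mTEC libraries (unadjusted p = 0.0217), and at 49.8% of their mean. The 10 fibroblast and endothelial markers summed to 1074 CPM in KO mTEC against 255.1 and 189 CPM in WT mTECs, with Col3a1 at 249.1 CPM against 15.71 and 8.964 CPM. Dendritic cell and macrophage markers summed to 757.2 CPM and B cell markers to 137.5 CPM, against 904.6 to 1164 CPM and 104.1 to 118.8 CPM. Their part in the members' values was not tested.

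Whether the KO effect differed between the populations was tested directly, as the effect in mTECs minus that in cTECs. The difference was called by edgeR for 0 of the 10 members, against 6.81% of all genes tested (6.16% higher in mTECs and 0.644% lower), while 2 had an unadjusted p under 0.05. Those were H2-DMa (-1.02 ± 0.31, edgeR adjusted p = 0.105) and H2-Ob (2.76 ± 1.18, edgeR adjusted p = 0.252). DESeq2 called H2-DMa and limma-voom called 0. For Ciita the difference was -0.59 ± 0.28 (edgeR adjusted p = 0.311).

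Genes whose levels followed the members most closely were sought over the 8 libraries, as the smallest root mean square difference between a gene's log2 CPM, centred on its mean, and the mean centred profile of the members. Xrcc4 (0.09), Ppp1r2 (0.091), Bcl2l1 (0.101), Gabpb1 (0.107), Arpc5 (0.113), Elovl5 (0.118), Tmem167 (0.121) and Cpt2 (0.122) came nearest, where the median of 10949 genes was 0.673. The members themselves lay at 0.091 (H2-Eb1) to 1.054 (H2-Ob) from their mean, with H2-Oa at 0.866 and H2-DMa at 0.697, so that these 3 followed it less closely than the median gene. The members' mean profile stood at 0.14 in WT cTEC library 1, -0.42, -0.31 and -0.50 in libraries 2 to 4, -0.49 in KO cTEC, 0.47 and 0.58 in the WT mTECs and 0.52 in KO mTEC. Bcl2l1, which encodes the survival protein BCL-XL, stood at 0.21, -0.28, -0.31, -0.64, -0.40, 0.50, 0.42 and 0.50 in the same order. The points share library depth and scaling, so this is a description of these 8 libraries.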

How the data were processed

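RNA from frozen pellets was reverse-transcribed and amplified by a kit for small RNA inputs, tagmented and sequenced as paired 75-base reads, per the labels' protocols. The authors deposited raw counts per Entrez gene for each library, made with featureCounts against mm10, per the submitters' processing notes. The aligner, the annotation and all versions: not given in the sources used here. One table of the whole series, with columns that match no label, was left out. Symbols and positions came from a RefSeq gene table (25275 of 27179 identifiers matched), and promoters from RefSeq.

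Genes reaching a CPM of 1 in 2 or more libraries (18163) were scaled by TMM and fitted with 1 mean per group in edgeR 4.0.16 (R 4.3.3), with a two-sided quasi-likelihood test and p-values adjusted over all genes tested. The fit has 4 residual degrees of freedom, all from WT libraries. RPKM divides the scaled CPM by the gene length in the files. Alternatives were DESeq2 1.42.0, limma-voom (limma 3.58.1), RLE size factors, other filters (none, or a CPM of at least 5), WT libraries alone, a replicate block and leaving out libraries. The scripts were tested on simulated data. Counting limits cover counting error only, since reads carry no molecular identifiers.

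The members and the other gene lists were chosen with earlier results of these data known. Named are all 10 members, Mcl1, H2-Eb2, H2-Ea, up to 3 called genes with the largest change per list and comparison, and the 8 genes nearest in profile. Some genes that this rule covers are not reported here. Genes quoted beside a result were chosen after their values were seen.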

Additional observations from a re-analysis of the deposited data

Results flagged for a closer look

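WT cTEC library 1 stood apart within its group of 4 for 3 of the 32 genes examined in this way, 2 of them members. Its gap to the nearest other library, as a share of the group's range, was 0.981 for H2-Oa, 0.918 for H2-Ob and 0.896 for Icosl. Among independent groups, chance flags about 1 in 20. The 32 genes share the same 4 libraries, so their flags are not independent, and the share flagged over all genes tested was not computed. The 32 are only part of the listed genes, so a gene without a flag, such as Cd86, may not have been examined. The library also had the highest Cd86 (20.82 CPM against 0.877 to 1.845 CPM) and H2-Eb2 (50.54 CPM against 18.18 to 24.1 CPM), while Ciita, at 181.9 CPM, lay within the 170.1 to 210.9 CPM of the other 3.

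The KO effect in mTECs minus that in cTECs passed the test for Mcl1 itself (log2 difference 3.96). It also passed for 9 genes of the class I (3 of 10), costimulation (3 of 6), regulator (1 of 13), processing (1 of 9) and interferon-gamma (1 of 9) lists. Over all genes tested 6.81% passed, 6.16% higher in mTECs and 0.644% lower. All 9 were called lower in KO cTEC. In KO mTEC, where none was called, Unc93b1 (0.391) and Pdcd1lg2 (0.229) had positive log2 fold changes and the others negative ones. Of the 9, those in the class I list were Nlrc5 (3.04), B2m (2.53) and H2-K1 (1.48). In the costimulation list they were Pdcd1lg2 (6.67), Cd80 (4.37) and Cd274 (1.88). In the remaining 3 lists they were Unc93b1 (3.55), Socs1 (1.66) and Prdm1 (8.52), and the value of Prdm1 depends on the prior count because KO cTEC had 0 counts. Of the 13 mTEC markers, 10 passed it in the same direction. No member of the class II set passed that test in edgeR.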

How the results depend on the processing

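Each KO group holds 1 library and WT mTECs hold 2, which limits these calls. Members called higher in WT mTECs than WT cTECs were 6 with all libraries, 6 or 7 under the other scaling, filters and tools, 0 to 7 when 1 library was left out, and 1 without WT cTEC libraries 2 to 4, where the lone cTEC and KO samples are assumed to vary like the WT mTEC libraries. A replicate block called 0, and it leaves 1 residual degree of freedom. Whether replicate numbers pair the samples could not be decided. Correlations of deviations were -0.146 and -0.019 for the 2 numbers, but deviations of 2 WT mTEC libraries from their own mean mirror each other. In KO cTEC, 1 member was called higher (0 to 1 with 1 library left out) and 0 lower (1 by DESeq2, 0 to 1 with 1 library left out, 4 without WT cTEC libraries 2 to 4). In KO mTEC 0 were called under every setting run. For the difference of KO effects, 0 were called either way, but 1 lower by DESeq2, 0 to 1 higher with 1 library left out, and 3 higher and 1 lower without WT cTEC libraries 2 to 4. Some log2 fold changes, none of them called, changed sign. Without WT cTEC libraries 2 to 4, H2-Aa was at -0.252 and H2-Ab1 at -0.123 in KO cTEC. With 1 library left out, Cd74 in KO cTEC ran from -0.172 to 0.02, H2-Oa in KO mTEC from -0.182 to 0.054 and H2-Ob in KO mTEC from -0.328 to 0.106, and the difference of KO effects ran from -0.015 to 0.094 for H2-Ab1 and from -0.095 to 0.189 for H2-DMb2. The cause was not tested.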
